A study of Mus musculus with 6 samples.

Results

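A set of 10 genes of fatty acid uptake and activation were followed in midnolin knockdown liver cancer cells. They were taken by symbol from the deposited tables of 25078 genes, and comprise the acyl-CoA synthetases Acsl1, Acsl3, Acsl4 and Acsl5, the cytosolic fatty acid binding proteins Fabp1, Fabp2 and Fabp5, and the membrane proteins Cd36, Slc27a2 and Slc27a4. All 10 were present in the tables. In the comparison of knockdown with scramble (scr) control, 7 of them passed a filter on low values and were tested among 11577 genes, whereas Fabp1, Fabp2 and Cd36 did not pass it.

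Ribosome-depleted total RNA of Hepa1-6 cells, a mouse hepatoma line from the C57/L strain, was sequenced in 6 libraries. The wt library came from untreated parental cells. The 2 scr libraries came from cells transduced with lentivirus carrying a scramble vector, and the 3 knockdown libraries from cells transduced with lentivirus carrying a midnolin shRNA vector. Both transduced groups were selected with puromycin for 7 to 10 days and grown out from single cells by limiting dilution, steps that the wt cells did not undergo, and all cells were kept in DMEM with 10% fetal bovine serum. Each transduced library is named here by the numbers in its label (scr 25-2 and 50-1, knockdown 25-3, 50-2 and 50-5), whose meaning the labels do not explain. The labels do not tie a library to a particular shRNA or clone, so differences between clones and differences made by the knockdown cannot be fully told apart with 2 scr and 3 knockdown libraries, and p-values measure the spread between these libraries.

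Long-chain fatty acids enter cells by diffusion and with the help of membrane proteins such as CD36 and the fatty acid transport proteins of the Slc27a family. In the cytosol they are carried by fatty acid binding proteins. Long-chain acyl-CoA synthetases join them to coenzyme A, which traps them in the cell and is required before they can be oxidised or built into triglycerides and phospholipids. Liver normally relies on Fabp1, Acsl1, Acsl5 and Slc27a2, whereas Fabp2 belongs to the intestine, Fabp4 to adipocytes and macrophages, and Fabp5 to the epidermis and many tumour cells.

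Total counts ranged from 25586301 in wt to 33119710 in knockdown 50-5, and the ribosomal gene Rn45s took 10.1% to 13.1% of them. Levels are given as RPKM, reads per kilobase of exon scaled to sequencing depth, so they can be set side by side between genes. Midn, the targeted gene (chr10:80148272-80158368, mm10), had an RPKM of 60.5 in wt, 59.6 and 50.8 in the scr libraries and 20.3, 21.8 and 22.1 in the knockdown libraries, with a log2 fold change of -1.38 (SE 0.133, FDR 0.00777, edgeR quasi-likelihood test), and without knockdown 50-2 its FDR was 0.0525. The hepatocyte lineage list of 10 markers summed to an RPKM of 5510 in wt, 3260 and 4197 in scr and 1894, 1835 and 920 in knockdown. Serpina1a was at 0 counts in every library, and whether its reads can be told apart from those of other genes was not checked. The sum was carried by a few abundant genes, and the list went both ways. Of its 8 tested markers 4 had positive and 4 negative log2 fold changes, with a median of 0.20, and none was called by edgeR. Alb, the albumin gene, had an RPKM of 2424 in wt, 1877 and 2804 in scr and 336, 62.7 and 20.9 in knockdown (log2 fold change -4.08, FDR 0.0712, edgeR). Afp had an RPKM of 1430 in wt, 302 and 533 in scr and 212, 50.9 and 33.2 in knockdown (log2 fold change -2.10, FDR 0.143, edgeR). Trf and Apoa2 had log2 fold changes of -0.85 and -0.28. Apob, the structural apolipoprotein of liver lipoproteins, had an RPKM of 6.82 in wt, 2.997 and 1.07 in scr and 52.2, 37.8 and 4.37 in knockdown (log2 fold change 3.93, FDR 0.0822, edgeR), and Hnf4a, Krt18 and Krt8 had log2 fold changes of 1.23, 0.87 and 0.67. Alb was called without knockdown 25-3 (FDR 0.0411, edgeR) and Apob without knockdown 50-5 (FDR 0.0431, edgeR). DESeq2 called Alb lower (FDR 0.0128) and Apob (FDR 0.00721) and Krt18 (FDR 0.0174) higher. How far these differences in the liver markers bear on the genes below was not tested, and in bulk RNA fewer cells of a type and less RNA per cell cannot be told apart.

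Genes were called at a Benjamini-Hochberg adjusted p (FDR) under 0.05 and a fold change of at least 1.5, which 10.6% of all tested genes met. Among the 10 members, 2 were called, both lower in knockdown (Acsl1 and Acsl5), and 0 were called higher, where 5.23% and 5.4% of all tested genes were called lower and higher. Of the other 5 tested members, Slc27a2 and Acsl4 had negative log2 fold changes and Acsl3, Fabp5 and Slc27a4 positive ones, and none passed the FDR of the edgeR quasi-likelihood test. DESeq2 called 5 members, adding Slc27a2 (FDR 0.000737), Acsl3 (FDR 0.0393) and Fabp5 (FDR 0.04). All 3 knockdown libraries lay below both scr libraries for Acsl1, Acsl5, Slc27a2 and the untested Fabp2, and above both for Acsl3 and Fabp5. Of all tested genes 24.5% lay below in this way and 25.7% above. Such separation was frequent in these data, since the groups did not overlap for 50.2% of all tested genes. Slc27a2 passed the filter through scr 50-1 alone among the 5 compared libraries. The median log2 fold change of the 7 tested members was -0.70 beside -0.01 for all tested genes, and with so few members it is given as a description.

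**Figure D1:**
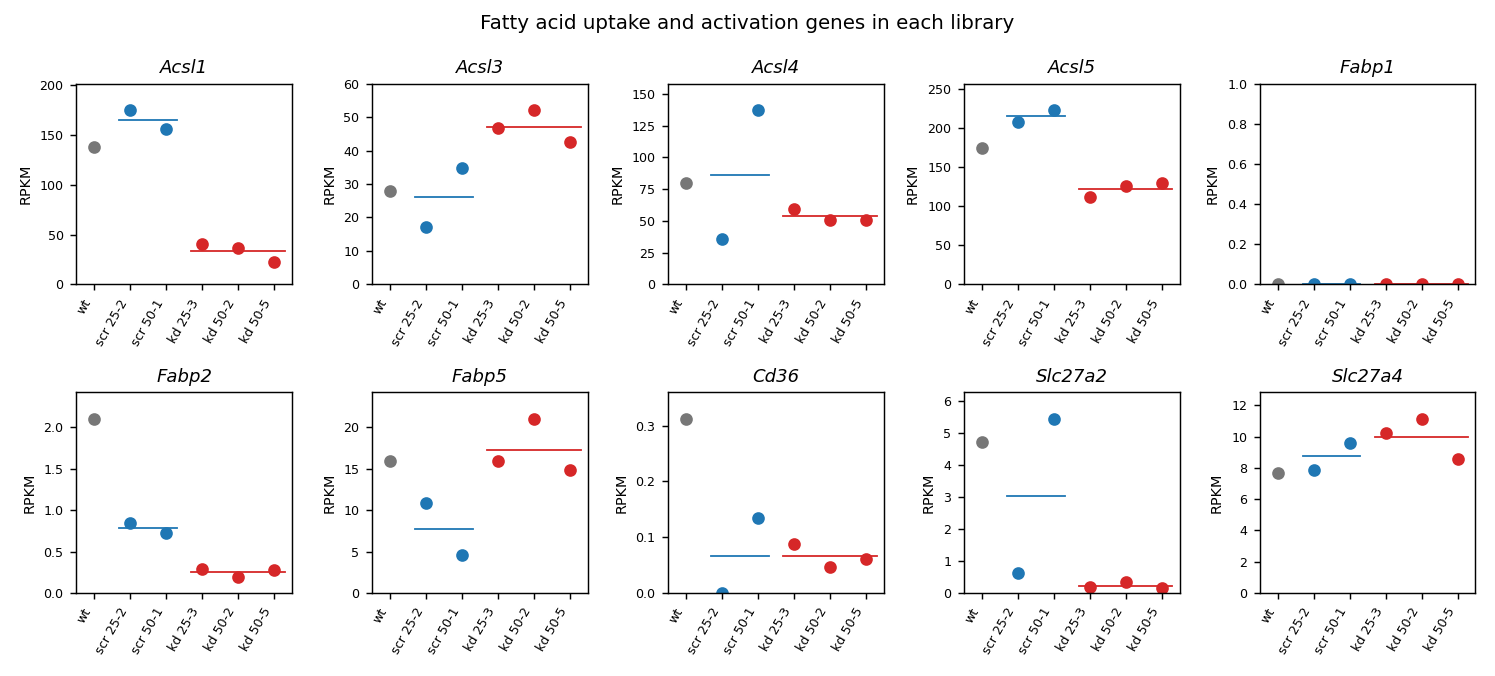
RPKM of the 10 members in each library on linear axes from 0, 1 panel per gene and 1 point per library (wt grey, scr blue, knockdown red), with the mean of each transduced group as a line. The 3 knockdown points of Acsl1 (22.1 to 40.9) and Acsl5 (112 to 130) lie below both scr points, those of Acsl4 lie between scr points of 35.4 and 137, and Fabp1 is at 0 in every library.

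Promoter sequences are shown for the genes the results turn on, the called Acsl1 and Acsl5, and for Fabp1 and Cd36, which were at or near 0 in these cells. The promoter windows of Fabp1 and Cd36 hold letters resembling the element bound by peroxisome proliferator-activated receptors (PPARs), known regulators of fatty acid genes. Of the PPAR genes, Ppara was at an RPKM of 0.116 to 0.378 in these libraries and did not pass the filter, while Ppard and Pparg passed it. Each run is the 250 bases before a transcription start in RefSeq (GRCm38.p6, the assembly of mm10), read 5' to 3' on the strand of the gene. The element is a direct repeat of 2 copies of AGGTCA with 1 base of any kind between them. Capitals mark the match to it with at most 2 mismatches on either strand.
Acsl1, upstream start, chr8:46470787-46471036, plus strand: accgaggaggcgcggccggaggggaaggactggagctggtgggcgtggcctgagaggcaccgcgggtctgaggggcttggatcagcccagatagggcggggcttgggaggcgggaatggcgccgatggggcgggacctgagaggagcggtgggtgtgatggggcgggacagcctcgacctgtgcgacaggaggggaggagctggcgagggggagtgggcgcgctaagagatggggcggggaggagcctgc
Acsl1, internal start, chr8:46490716-46490965, plus strand: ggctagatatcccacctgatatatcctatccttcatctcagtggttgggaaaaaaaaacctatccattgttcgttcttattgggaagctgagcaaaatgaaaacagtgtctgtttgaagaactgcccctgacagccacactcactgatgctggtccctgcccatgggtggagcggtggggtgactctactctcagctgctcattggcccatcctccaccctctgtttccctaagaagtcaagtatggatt
Acsl5, chr19:55253119-55253368, plus strand: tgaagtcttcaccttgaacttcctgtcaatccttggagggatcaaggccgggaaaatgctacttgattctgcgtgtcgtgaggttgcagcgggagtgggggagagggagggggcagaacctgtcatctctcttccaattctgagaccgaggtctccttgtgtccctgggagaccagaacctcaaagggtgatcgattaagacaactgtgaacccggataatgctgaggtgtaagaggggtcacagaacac
Fabp1, chr6:71199629-71199878, plus strand: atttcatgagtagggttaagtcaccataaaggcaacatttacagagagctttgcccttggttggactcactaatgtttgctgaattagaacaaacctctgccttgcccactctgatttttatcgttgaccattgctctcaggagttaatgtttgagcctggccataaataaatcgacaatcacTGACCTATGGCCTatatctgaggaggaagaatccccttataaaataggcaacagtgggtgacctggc
Cd36, chr5:17835897-17836146, minus strand: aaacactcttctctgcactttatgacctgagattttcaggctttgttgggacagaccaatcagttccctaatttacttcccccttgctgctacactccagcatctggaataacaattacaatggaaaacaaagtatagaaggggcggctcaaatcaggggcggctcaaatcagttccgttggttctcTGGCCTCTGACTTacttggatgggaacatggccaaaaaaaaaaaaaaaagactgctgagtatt

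The 2 Acsl1 starts had unlike sequence. The upstream run had 72% GC and 20 CpG, and the internal run 48.4% GC and 2 CpG. Neither held a match, and nor did the Acsl5 run, which had 52.8% GC and 7 CpG. In Fabp1 the match began 67 bases before the start and lay on the strand opposite to the gene, where it read AGGCCATAGGTCA with 1 mismatch. In Cd36 it began 63 bases before the start, again on the strand opposite to the gene, and read AAGTCAGAGGCCA with 2 mismatches. Windows of 300 bases (250 before and 50 after the start) were found for 9 of the 10 members, with 10 windows in all, and Fabp5 had none. Of these windows 2 held the direct repeat, as did 3.86% of all 32851 windows. The hexamer AGGTCA, which is also each arm of the direct repeat, was found on either strand in the windows of Cd36, Fabp1 and Slc27a2 and in 16.3% of all windows. TATAAA was found in the window of Fabp1 alone among the members and in 13.6% of all. A match describes letters and does not show binding.

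The liver acyl-CoA synthetase Acsl1 was the member with the largest called difference. Acsl1 (chr8:46471037-46536051, plus strand, mm10) supplies acyl-CoA for oxidation and triglyceride synthesis in liver, heart and fat. Its RPKM was 138 in wt, 175 and 156 in scr and 40.9, 36.0 and 22.1 in knockdown, from counts of 14726 in wt, 21116 and 18152 in scr and 5284, 4761 and 2994 in knockdown. The control libraries were all high and the knockdown libraries all low, with no overlap, and knockdown 50-5 was the lowest. The mean RPKM was 165 ± 13.9 (SD, n = 2) in scr and 32.99 ± 9.74 (SD, n = 3) in knockdown, 5.02-fold lower. The log2 fold change was -2.34 (SE 0.268, FDR 0.0101, edgeR). Without knockdown 50-2 it was no longer called (FDR 0.0623, edgeR), while its log2 fold change stayed between -2.53 and -2.12 whichever library was left out. The 20 tested genes within 5 Mb on either side of Acsl1 had a median log2 fold change of -0.43, which left a difference of -1.92 for Acsl1.

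Acsl5 fell with Acsl1, by less. Acsl5 (chr19:55253369-55296628, plus strand, mm10) is the synthetase of liver and intestine found in mitochondria and endoplasmic reticulum. Its RPKM was 175 in wt, 208 and 224 in scr and 112, 126 and 130 in knockdown. All knockdown libraries were below the 3 control libraries. The scr mean was an RPKM of 216 ± 11.4 (SD, n = 2) and the knockdown mean 122 ± 9.34 (SD, n = 3), 1.76-fold lower. The log2 fold change was -0.83 (SE 0.130, FDR 0.0196, edgeR). Acsl5 was not called when any knockdown library was left out, with an FDR of up to 0.0975 (edgeR), and its log2 fold change then stayed between -0.88 and -0.77 over all libraries left out. The 33 tested genes around Acsl5 had a median log2 fold change of -0.05. In its transcript 5.53% of 50-base stretches occur in other genes, mostly in the neighbouring Zdhhc6, and their counts are uncertain to that extent.

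Acsl3 (chr1:78657825-78707743, plus strand, mm10), which activates fatty acids at the endoplasmic reticulum and on lipid droplets, moved the other way without passing the FDR. Its RPKM was 27.96 in wt, 17.0 and 34.9 in scr and 46.8, 52.2 and 42.5 in knockdown. The knockdown libraries were close together and above every control library, whereas the scr libraries were 2.05-fold apart. A gap of at least 1.5-fold between the scr libraries was found for 29.5% of all tested genes. The means were an RPKM of 25.99 ± 12.7 (SD, n = 2) in scr and 47.2 ± 4.88 (SD, n = 3) in knockdown, with a log2 fold change of 0.85 (SE 0.311, FDR 0.131, edgeR). Leaving out scr 50-1, the higher of the scr libraries, gave 1.46 with an FDR of 0.0142 (edgeR), and leaving out scr 25-2 gave 0.44. The overlapping gene Utp14b, on the same strand, shares 4.05% of the 50-base stretches of the Acsl3 transcript.

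Acsl4 (chrX:142317993-142390535, minus strand, mm10), which prefers arachidonic acid and shapes membrane phospholipids, could not be given a direction. Its RPKM was 80.1 in wt, 35.4 in scr 25-2, 137 in scr 50-1 and 59.3, 50.9 and 50.3 in knockdown. The 3 knockdown libraries were alike and lay between the scr libraries, which were 3.88-fold apart. A gap of at least 3-fold between the scr libraries was found for 7.09% of all tested genes. The log2 fold change of Acsl4 was -0.70 (SE 0.515, FDR 0.400, edgeR). It was 0.58 without scr 50-1 (FDR 0.0864, edgeR) and -1.36 without scr 25-2 (FDR 0.0071, edgeR), so the direction followed the scr library that was kept. The 19 tested genes within 5 Mb of Acsl4 had a median log2 fold change of -0.69, which left -0.02 for Acsl4. Across the 351 tested genes of the X chromosome the median log2 ratio of scr 50-1 to scr 25-2 was 0.52 and the median log2 fold change of knockdown to scr was -0.44. The part of this chromosome-wide difference in the Acsl4 values was not tested.

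Set side by side per length, the 4 synthetases changed order. In wt and in both scr libraries Acsl5 had the highest RPKM and Acsl1 the next. In all 3 knockdown libraries Acsl5 was still the highest and Acsl1 the lowest of the 4. Acsl3 and Acsl4 did not separate in knockdown, with RPKM of 42.5 to 52.2 and 50.3 to 59.3. The summed RPKM of the 4 genes was 421 in wt, 436 and 552 in scr and 259, 265 and 245 in knockdown, so the knockdown sums lay below every control sum. Acsl1 made up 32.8% of the sum in wt, 40.2% and 28.2% in scr and 15.8%, 13.6% and 9.04% in knockdown. Acsl3 made up 6.65% in wt, 3.91% and 6.33% in scr and 18.1%, 19.7% and 17.4% in knockdown. Acsl5 held 40.6% to 47.7% of the sum in the control libraries and 43.2% to 53.0% in knockdown, ranges that overlapped. These shares were not tested.

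**Figure D2:**
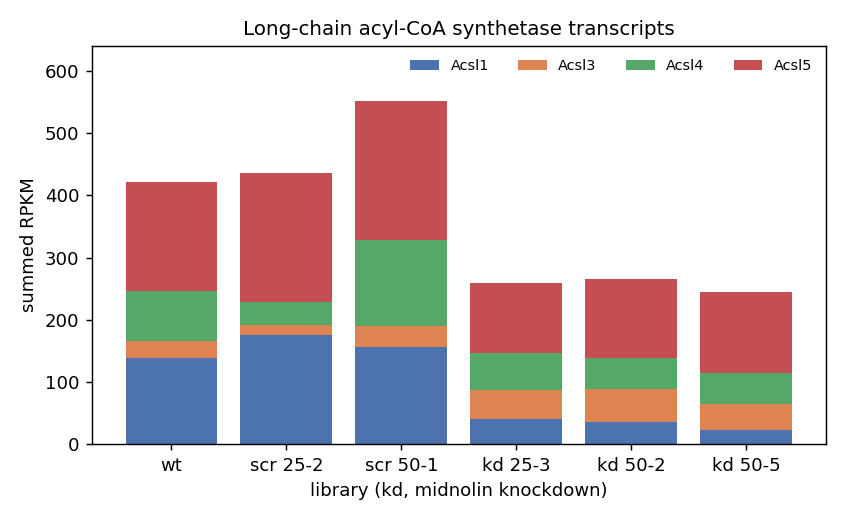
Summed RPKM of Acsl1, Acsl3, Acsl4 and Acsl5 in each library, with the share of each gene stacked from 0. The sums are 421 in wt, 436 and 552 in scr and 245 to 265 in knockdown, and the Acsl1 share is 28.2% to 40.2% in the control libraries and 9.04% to 15.8% in knockdown.

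Among the binding proteins Fabp1, the abundant liver form (chr6:71199879-71205034, plus strand, mm10), had 0 counts in all 6 libraries. A count of 0 allows up to 3 counts, or an RPKM of 0.225 in wt, 0.199 and 0.206 in scr and 0.177 to 0.185 in knockdown, a limit that covers counting error only. None of the 50-base stretches of its transcript occurs in another gene. Fabp2, the intestinal form (chr3:122895072-122899506, plus strand, mm10), had 53 counts in wt, 24 and 20 in scr and 9, 6 and 9 in knockdown, an RPKM of 2.11 in wt, 0.845 and 0.727 in scr and 0.295, 0.192 and 0.282 in knockdown. The wt library was the highest and the knockdown libraries were all below both scr libraries. The scr mean was an RPKM of 0.786 ± 0.0831 (SD, n = 2) and the knockdown mean 0.257 ± 0.0559 (SD, n = 3), 3.07-fold lower. Fabp2 did not pass the filter, and in a fit of every gene with at least 1 count its log2 fold change was -1.61 (SE 0.475, FDR 0.0921, edgeR). It was called only where wt was added to the scr libraries (log2 fold change -2.23, FDR 0.0339, edgeR). In that fit Fabp2 passed the filter through wt alone, the library where it was highest. The intestinal list of 5 markers summed to an RPKM of 68.8 to 78.6 in the control libraries and 63.3 to 76.4 in knockdown, almost all of it from Vil1 and Lgr5, which went opposite ways. Lgr5 was called lower (RPKM 26.3 and 50.9 in scr and 9.20 to 12.2 in knockdown, log2 fold change -1.80, FDR 0.0230, edgeR), though not when any knockdown library was left out (FDR up to 0.101, edgeR). Vil1 lay above both scr libraries in every knockdown library without being called (log2 fold change 0.89, FDR 0.129, edgeR), and was called without scr 25-2 (FDR 0.0108, edgeR) and by DESeq2 (FDR 0.0333). The part of these markers in the Fabp2 values was not tested. The intestinal regulators Cdx1 and Cdx2 and the mucin Muc2 were at or near 0 in every library. The antisense gene 4933405D12Rik overlaps Fabp2, and without a stated strand setting its reads cannot be told apart from those of Fabp2.

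Fabp5, the epidermal form (chr3:10012585-10016610, plus strand, mm10), was the most abundant of the member binding proteins. Its RPKM was 15.98 in wt, 10.9 and 4.64 in scr and 15.9, 21.1 and 14.8 in knockdown. The knockdown libraries were above both scr libraries, and wt lay among the knockdown libraries. The means were an RPKM of 7.76 ± 4.41 (SD, n = 2) in scr and 17.3 ± 3.33 (SD, n = 3) in knockdown, with a log2 fold change of 1.14 (SE 0.408, FDR 0.125, edgeR). Without scr 25-2 it was 1.90 (FDR 0.0169, edgeR) and without scr 50-1 0.66 (FDR 0.180, edgeR). In its transcript 21.1% of 50-base stretches occur in other genes, chiefly the copies Gm6166, Gm14328 and Fabp5l2, and its counts are uncertain to that extent.

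The fatty acid translocase Cd36 (chr5:17781690-17888959, minus strand, mm10), a receptor for long-chain fatty acids and oxidised lipoproteins, had 32 counts in wt, 0 and 15 in scr and 11, 6 and 8 in knockdown. Its RPKM was 0.313 in wt, 0 and 0.134 in scr and 0.0887, 0.0473 and 0.0616 in knockdown. The count of 0 in scr 25-2 allows an RPKM of up to 0.026, and the knockdown libraries lay between the scr libraries. In a fit of every gene with at least 1 count the log2 fold change was -0.03 (SE 1.14, FDR 0.991, edgeR), with scr libraries that differed from one another.

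Slc27a2 (chr2:126553024-126588243, plus strand, mm10), the very long-chain acyl-CoA synthetase and fatty acid transport protein of liver and kidney, had the largest log2 fold change of the tested members in the edgeR fit, and it did not pass the FDR. Its RPKM was 4.70 in wt, 0.635 in scr 25-2, 5.45 in scr 50-1 and 0.193, 0.336 and 0.144 in knockdown, from counts of 282 in wt, 43 and 357 in scr and 14, 25 and 11 in knockdown. The knockdown libraries were all low, while scr 25-2 was closer to them than to scr 50-1, from which it stood 8.58-fold apart. The scr mean was an RPKM of 3.04 ± 3.40 (SD, n = 2) and the knockdown mean 0.224 ± 0.0998 (SD, n = 3), 13.5-fold lower. The log2 fold change was -3.76 (SE 0.916, FDR 0.0558, edgeR). It was -4.59 without scr 25-2 (FDR 0.00519, edgeR), and without scr 50-1 the gene did not pass the filter and could not be tested. In limma on log2(RPKM + 1), a scale that shrinks differences of low genes, Slc27a2 was at -1.41 (FDR 0.149), a smaller difference than that of Acsl1 at -2.33. In its transcript 13% of 50-base stretches occur in Gm26697, and its counts are uncertain to that extent.

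Slc27a4 (chr2:29802634-29817522, plus strand, mm10), a transport protein and acyl-CoA synthetase of intestine and skin, differed least among the tested members. Its RPKM was 7.64 in wt, 7.88 and 9.62 in scr and 10.3, 11.2 and 8.57 in knockdown. The groups overlapped. The means were an RPKM of 8.75 ± 1.23 (SD, n = 2) in scr and 9.99 ± 1.32 (SD, n = 3) in knockdown, and the log2 fold change was 0.18 (SE 0.171, FDR 0.513, edgeR), within the spread between libraries.

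**Figure D3:**
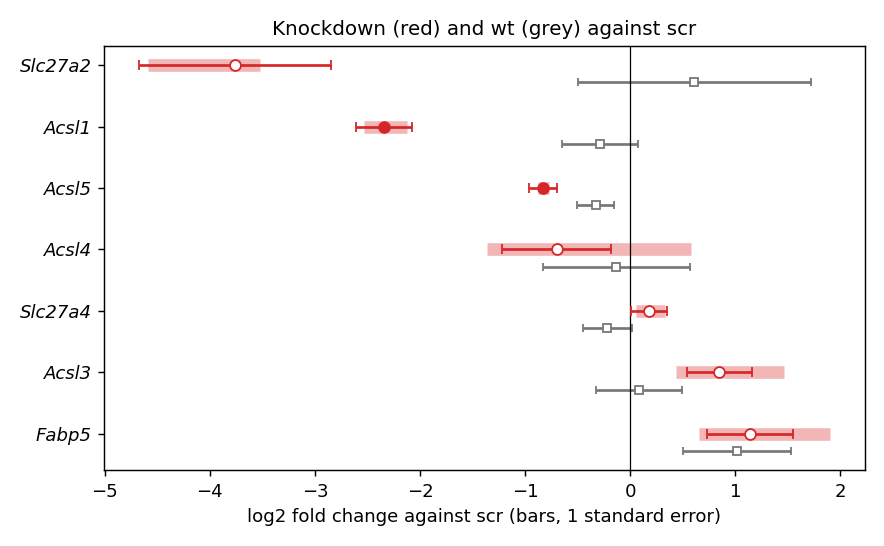
Log2 fold change of the tested members for knockdown against scr (red circles, filled where called) and for wt against scr (grey squares), with bars of 1 SE, and the range over fits of knockdown against scr that leave out each library in turn (pink bands). Acsl1 (-2.34) and Acsl5 (-0.83) are filled, and the band of Acsl4 runs from -1.36 to 0.58, across 0.

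The comparison of wt with scr asks whether scramble control cells differed from the parental cells in these genes. It shares the scr libraries with the knockdown comparison, and the lone wt library is assumed to vary like the others. None of the members was called, beside 0% of the 11647 genes tested (edgeR, with 899 genes at an unadjusted p under 0.05, and 128 genes called by DESeq2). The log2 fold change of wt to scr was -0.29 for Acsl1 (SE 0.364, FDR 0.867, edgeR), where wt reached 83.4% of the scr mean RPKM and knockdown 19.9%. For Acsl5 it was -0.33 (SE 0.179, FDR 0.688, edgeR), with wt at 80.9% of the scr mean and knockdown at 56.7%. Fabp5 had a log2 fold change of 1.01 for wt to scr (SE 0.515, FDR 0.679, edgeR), and wt was above both scr libraries. For Acsl3 and Acsl4 wt lay between the scr libraries, with log2 fold changes of 0.08 and -0.13, as it did for Slc27a2 with 0.61 (SE 1.11, FDR 0.913, edgeR). Fabp2, which passed the filter here through the wt library, was at 1.39 (SE 0.474, FDR 0.633, edgeR), and Slc27a4 at -0.22 (FDR 0.838, edgeR).

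The remaining members of the same gene families numbered 28, of which 10 were tested. Of these, 3 were called higher and 1 was called lower, beside 5.4% and 5.23% of all tested genes, and the median log2 fold change was -0.02. DESeq2 called 3 higher and 3 lower, with Acsf2 and Acss2 added. Fabp4, the binding protein of adipocytes and macrophages (chr3:10204343-10208616, minus strand, mm10), had an RPKM of 0.676 in wt, 1.10 and 0.103 in scr and 27.7, 29.7 and 32.3 in knockdown, from counts of 12 in wt, 22 and 2 in scr and 595, 654 and 728 in knockdown. It was low in every control library and high in every knockdown library, with a log2 fold change of 5.60 (SE 0.795, FDR 0.0160, edgeR). The size depended on the few scr counts, as it ran from 4.75 to 8.10 when each library was left out, and the gene was not called when any knockdown library was left out (FDR up to 0.0801, edgeR). Of the other adipocyte markers, Adipoq, Plin1 and Cfd were at an RPKM of 0.0416 or less and Lep at 0 in every library. The leukocyte and macrophage list of 5 markers summed to an RPKM of 4.35 in wt, 4.37 and 4.74 in scr and 9.12, 10.2 and 14.2 in knockdown, mostly from Cd68 and Csf1r. Only these 2 were tested, and neither was called (FDR 0.0989 and 0.192, edgeR). For 4 of the 5 all knockdown libraries lay above both scr libraries, as for 25.7% of all tested genes. Of these Ptprc and Lyz2 were at an RPKM of 0.878 or less. The part of this list in the Fabp4 values was not tested. The fibroblast and stellate list of 6 markers summed to an RPKM of 3.65 in wt, 0.365 and 1.10 in scr and 3.08, 2.32 and 1.96 in knockdown. Of these Pdgfra was called higher than in scr (log2 fold change 3.10, SE 0.410, FDR 0.0140, edgeR), while wt was as high as the knockdown libraries, and the call was lost without knockdown 25-3 or 50-2 (FDR up to 0.0701, edgeR) and with wt added to scr (log2 fold change 1.37, FDR 0.295, edgeR). Pdgfra passed the filter through the knockdown libraries alone, and the collagen genes of the list were at an RPKM of 0.208 or less in every library. The endothelial list of 4 markers summed to 0.163 and 0.173 in scr and 0.147 to 0.371 in knockdown, and its 2.89 in wt came almost entirely from Pecam1.

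Fabp4 lies 191.8 kb from the start of Fabp5. Between them, Gm9833 had a log2 fold change of 0.18 (FDR 0.651, edgeR), and Fabp9 was at 0 in every library. On the far side of Fabp5, Pag1 had an RPKM of 1.18 in wt, 2.55 and 0.383 in scr and 3.45, 3.09 and 5.58 in knockdown, with a log2 fold change of 1.45 (FDR 0.263, edgeR), and of 3.40 without scr 25-2 (FDR 0.0108, edgeR). Beyond Fabp4, Impa1 had a log2 fold change of -0.47 (FDR 0.155, edgeR), and of -0.72 without scr 50-1 (FDR 0.0344, edgeR). As a share of the summed RPKM of the Fabp family, Fabp5 held 85.1% in wt, 84.8% and 84.0% in scr and 36.3%, 41.3% and 31.3% in knockdown. Fabp4 held 3.60% in wt, 8.56% and 1.87% in scr and 62.9%, 58.2% and 68.1% in knockdown. The family sum was an RPKM of 18.8 in wt, 12.8 and 5.52 in scr and 44.0, 51.03 and 47.5 in knockdown, so the knockdown sums were above every control sum. These shares were not tested.

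Acsbg1, an acyl-CoA synthetase of the bubblegum family, had an RPKM of 6.37 in wt, 4.26 and 6.54 in scr and 16.3, 24.97 and 20.1 in knockdown, and rose with a log2 fold change of 1.91 (SE 0.277, FDR 0.0168, edgeR). Scarb1, the high-density lipoprotein receptor of the same family as Cd36, had an RPKM of 16.5 in wt, 11.4 and 17.1 in scr and 26.8, 30.4 and 35.8 in knockdown, and rose with a log2 fold change of 1.11 (SE 0.231, FDR 0.0394, edgeR). Slc27a3 had an RPKM of 0.567 in wt, 1.79 and 1.74 in scr and 0.289, 0.431 and 0.381 in knockdown, and fell with a log2 fold change of -2.27 (SE 0.314, FDR 0.0153, edgeR). It passed the filter through the scr libraries alone, the group where it was high. For Slc27a3 the wt library was itself low, nearer to the knockdown libraries than to the scr libraries. Among those not called with the highest levels, Aacs, Scarb2 and Acsf2 had log2 fold changes of -0.26, 0.18 and -0.61. Without knockdown 25-3 only Acsbg1 of the family list was called, and without knockdown 50-2 or 50-5 none was.

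**Figure D4:**
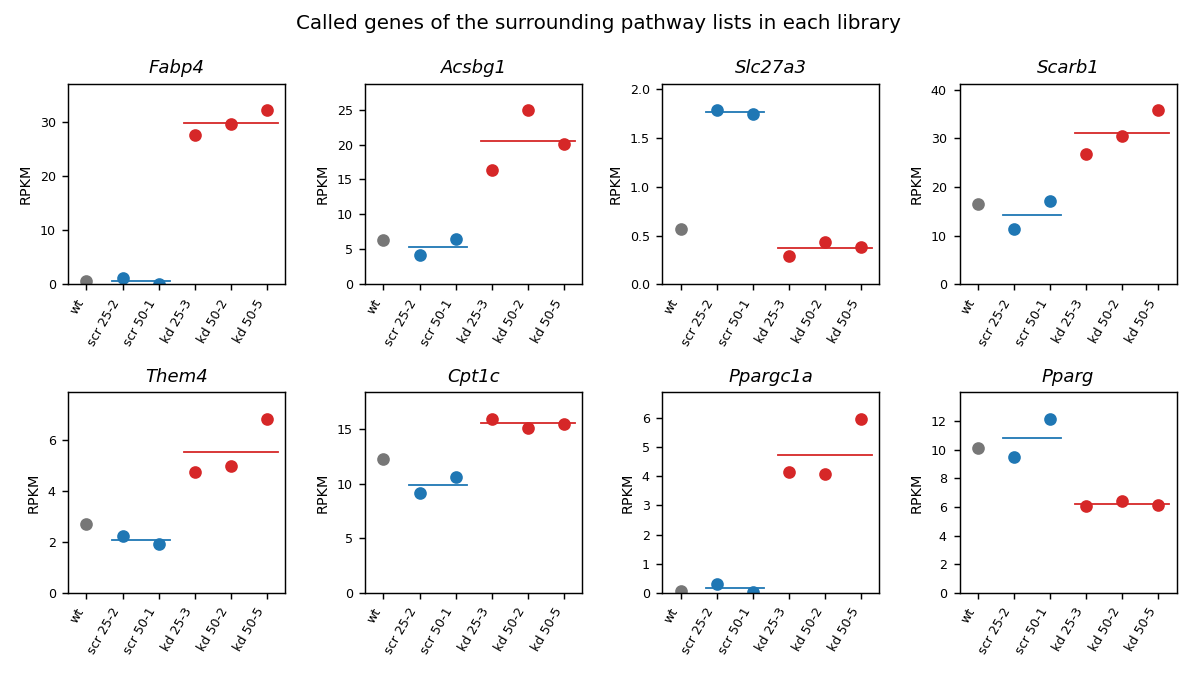
RPKM of the 8 called genes of the family, acyl-CoA and regulator lists in each library on linear axes from 0, 1 panel per gene and 1 point per library (wt grey, scr blue, knockdown red), with the mean of each transduced group as a line. Fabp4 lies between 0.103 and 1.10 in the control libraries and between 27.7 and 32.3 in knockdown, while Slc27a3 in wt (0.567) is below both scr libraries.

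Genes that handle acyl-CoA once it is made were taken from a list of 32, which covers binding, hydrolysis, carnitine transfer and peroxisomal import. Of the 25 tested, 2 were called higher and 0 lower (DESeq2 called 3 higher and 1 lower), beside 5.4% and 5.23% of all tested genes, 12 had positive and 13 negative log2 fold changes, and the median was -0.05. Them4, a mitochondrial thioesterase, had an RPKM of 2.70 in wt, 2.22 and 1.93 in scr and 4.76, 4.99 and 6.85 in knockdown, with a log2 fold change of 1.40 (SE 0.279, FDR 0.0359, edgeR). Cpt1c, the carnitine palmitoyltransferase 1 form of neurons, had an RPKM of 12.2 in wt, 9.11 and 10.6 in scr and 15.9, 15.1 and 15.5 in knockdown, with a log2 fold change of 0.64 (SE 0.136, FDR 0.0407, edgeR). Both lay above every control library in knockdown. The acyl-CoA binding proteins Dbi and Acbd3 and the thioesterase Acot7 had log2 fold changes of 0.13, 0.04 and 0.47, and were not called. Them4 and Cpt1c lost the call when any knockdown library was left out (FDR up to 0.142, edgeR), and with the label number as an added term. Them4 also lost it without scr 50-1, and Cpt1c without scr 25-2. Cpt1c was also not called with wt added to scr or with every gene of at least 1 count in the fit.

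Of 18 transcriptional regulators of fatty acid genes, 15 were tested, 1 was called higher and 1 lower, beside 5.4% and 5.23% of all tested genes, and the median log2 fold change was -0.20. DESeq2 called 1 higher and 2 lower, with Foxa1 added, and without scr 25-2 edgeR called 3 higher and 4 lower. Ppargc1a, the coactivator of mitochondrial oxidative genes, had an RPKM of 0.0698 in wt, 0.304 and 0.032 in scr and 4.14, 4.07 and 5.97 in knockdown, and rose with a log2 fold change of 4.79 (SE 0.865, FDR 0.0284, edgeR). It passed the filter through the knockdown libraries alone, the group where it was high. Its size rested on low scr levels, running from 3.94 to 7.18 over the libraries left out, and it was not called when any knockdown library was left out (FDR up to 0.101, edgeR). Pparg, the PPAR of adipocytes, had an RPKM of 10.1 in wt, 9.48 and 12.2 in scr and 6.06, 6.40 and 6.14 in knockdown, and was lower in every knockdown library, with a log2 fold change of -0.81 (SE 0.176, FDR 0.0429, edgeR). Pparg was not called when scr 50-1 or any knockdown library was left out (FDR up to 0.16, edgeR), nor with the label number as an added term (FDR 0.0617, edgeR) or with every gene of at least 1 count in the fit (FDR 0.0523, edgeR). Hnf4a, Cebpb and Foxa2, the liver regulators with the highest levels among those not called, had log2 fold changes of 1.23, -0.45 and 0.09. Without scr 25-2 Hnf4a was called higher (2.28, FDR 0.0415, edgeR) and Cebpb lower (-0.78, FDR 0.0498, edgeR), whereas without scr 50-1 they were at 0.65 and 0.00051.

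The genes whose pattern was most like that of Acsl1 over the 6 libraries were Cldn4, Alcam, Smpd3, Thbs1 and Pdia5, out of 3761 with a mean RPKM of at least 20. The root mean square difference between centred log2(RPKM + 1) profiles was 0.18 for Cldn4, a tight junction claudin, and 0.28 to 0.32 for the other 4. The RPKM of Cldn4 was 86.7 in wt, 118 and 127 in scr and 26.3, 31.4 and 17.3 in knockdown, so like Acsl1 it was lowest in knockdown 50-5. This likeness is a description over 6 libraries.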

How the data were processed

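RNA-seq of 6 Hepa1-6 libraries was analysed. Per the methods and the submitters' processing notes (bcl2fastq 2.18.0.12, TopHat2, HTSeq 0.6.1p1), the authors aligned single reads to mm10 and counted them per RefSeq gene, with another HTSeq version named in the methods. The deposited counts are not normalized, and whether counting used strand is not stated. Totals ran from 25586301 to 33119710 per library. The authors also deposited RPKM values scaled with edgeR.

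A gene was tested if any compared library had an RPKM over 1, on the counts, with the edgeR 4.0.16 quasi-likelihood test (R 4.3.3, TMM, Benjamini-Hochberg over all genes tested). Calls needed an FDR under 0.05 and a fold change of at least 1.5. All 3 knockdown libraries were used, since the labels do not say which come from the 2 clones the study compared. Earlier work on these data found knockdown 50-5 absent from the results the study published. The main set may therefore hold a library that the study did not compare. The fit without knockdown 50-5 was an alternative, with 346 genes called beside 1230, and Acsl5 was not called in it (FDR 0.0627, edgeR). Wt was compared with scr in a fit of all 6 libraries. The SE was obtained from each log2 fold change and its F statistic. Intervals and floors cover counting error only.

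The members and lists were chosen with earlier results of these data known. All members were named, and from each of the family, acyl-CoA and regulator lists up to 6 called genes with the largest change and up to 3 uncalled genes with the highest RPKM. Cell type markers and neighbours of Fabp5 given with values were chosen after their values were seen. Alternatives were DESeq2 1.42.0, other size factors and filters, limma 3.58.1 on log2(RPKM + 1) and log2(RPKM + 0.1), each library left out, wt added to scr, the label number as a term and the 10 Mb window around each gene. Scripts were tested on simulated data. Promoter sequences come from RefSeq (GRCm38.p6), and shared 50-base stretches were counted in GENCODE transcripts.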

Additional observations from a re-analysis of the deposited data

Results flagged for a closer look

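Acsl4 was set apart because its difference between knockdown and scr ran in opposite directions in the libraries labelled 25 and those labelled 50. The log2 ratio of mean RPKM was 0.74 for knockdown 25-3 against scr 25-2, and -1.44 for knockdown 50-2 and 50-5 against scr 50-1. Each scr value is 1 library, and the RPKM of scr 25-2 (35.4) and scr 50-1 (137) lay on either side of the 3 knockdown values. In an edgeR fit the difference between both label numbers was a log2 value of 2.16 for Acsl4, given as a description. In that fit scr 25-2, scr 50-1 and knockdown 25-3 were each the only library of their group. The spread between libraries therefore came from knockdown 50-2 and 50-5 alone, and no p is given. The fit was chosen after seeing the data.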

How the results depend on the processing

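In the comparison of knockdown with scr, 1230 genes were called, beside 2322 with DESeq2, 807 with the label number as an added term and 131 to 2273 when 1 library was left out. The 131 came without knockdown 50-2, 259 without knockdown 25-3, 346 without knockdown 50-5 and 2273 without scr 25-2. Of the members, 2 were called, beside 5 with DESeq2 (Acsl3, Fabp5 and Slc27a2 added), 4 with wt added to scr (Slc27a2 and Fabp2 added) and 0 to 5 with 1 library left out. The 0 came without knockdown 50-2, 1 (Acsl1) without knockdown 25-3 or 50-5, and 5 without scr 25-2, and keeping every gene with at least 1 count gave 3 (Slc27a2 added). In wt against scr 0 genes were called, beside 128 with DESeq2 and 4 to 19 without 1 scr library. No member was called in any of these. The log2 fold change took the other sign for Acsl4 (0.58 without scr 50-1, from -1.36 to 0.58 over the libraries left out), Scarb2 (-0.038 without scr 25-2, to 0.446), Dbi (-0.33 after subtracting the median of its window), Acbd3 (-0.094 after subtracting its window, -0.019 without scr 25-2, -0.083 without knockdown 50-2, to 0.143), Cebpb (0.00051 without scr 50-1, from -0.781), Gm9833 (-0.136 without scr 50-1, to 0.608) and Foxa2 (-0.027 without scr 25-2, -0.024 without knockdown 25-3, to 0.237). With all 5 libraries none of these genes was called. Over the 35 genes refitted, the other values kept their direction, 470 on the same side of the threshold, 43 weaker and 24 stronger. The causes were not tested. The label number (25 or 50), which both transduced groups hold, entered as the added term above. No paired analysis was possible because no replicate number after it is shared by libraries of the same label number. Low counts limit Cd36, Fabp1 and Fabp2.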
